A study of Homo sapiens with 36 samples.

Results

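The 48 genes described here are interferon-stimulated genes, taken by symbol from a fixed list and matched to the Ensembl gene IDs of the count tables, so 48 of the 58302 genes in those tables. They comprise the transcription factors STAT2, IRF9 and IRF7, cytosolic RNA sensors and their relatives, the ISG15 conjugation system, the OAS, IFIT, IFITM and MX families, GBP1, the IFI genes, PARP and nuclear body genes, and further antiviral effectors. Their RNA had been sequenced in UPN-1, MINO and JEKO, 3 established human lines of mantle cell lymphoma, a B cell tumour. Cells of a line had received GS716054, which the labels call an inhibitor of the KDM5 histone demethylases, or its vehicle DMSO, and were collected 24 h or 72 h later. This gave 12 groups of 3 libraries, 36 in all, and every group was grown in the same serum-containing medium. No group had received interferon per the labels, and the dose of GS716054 was not given in the sources used here. Each line stands for itself, since a line is a single culture of tumour cells kept in the laboratory.

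Type I interferons are secreted proteins that bind the receptor IFNAR1/IFNAR2. The receptor's kinases JAK1 and TYK2 then phosphorylate STAT proteins, among them STAT2, which acts with IRF9 in the complex ISGF3 to bind the interferon-stimulated response element in the promoters of target genes. Among these targets are the genes of the pathway itself, such as STAT2, IRF9 and IRF7, which amplify the response, and USP18, which shuts it off at the receptor. KDM5 enzymes remove methyl groups from lysine 4 of histone H3, a mark found at active promoters, and have been described as repressors of interferon-response genes in other cancers. The comparisons below ask, gene by gene, how these 48 genes stood in DMSO in each line and how they differed after GS716054.

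The core of the response element, GAAANNGAA on either strand, was searched in the RefSeq promoter windows of the members (GRCh38.p14, 250 bases before to 50 bases after a start site). Of the 48 members, 39 had at least 1 window in that table, with 55 windows in all. The motif stood in 34 of the 55 member windows (61.8%), belonging to 28 of the 39 matched members, against 8.11% of all 35116 windows of the same length. The gamma activation site TTCNNNGAA, whose last letters can coincide with the first letters of the other motif, stood in 13 member windows (23.6%) against 7.66% of all windows. These are matches of letters and not measured binding. The 150 bases before the start site are printed for 8 members on which the results below turn, with every GAAANNGAA match in capitals (its reverse complement where it lies on the other strand). ISG15, EPSTI1, LGALS3BP, ISG20 and IFI6 were called higher in MINO at 72 h, IFI27 and IFI44L differed most between JEKO libraries, and OAS1 is shown as a member without a match in this stretch. The pattern fixes the gap at 2 bases, and near its end the OAS1 stretch holds GAAA and GAA with 1 base between them. OAS1 is thus not shown to lack a response element. The stretch of ISG15 is chr1:1013347-1013496 on the plus strand, that of EPSTI1 is chr13:42992242-42992391 on the minus strand, and that of LGALS3BP is chr17:78979924-78980073 on the minus strand. The stretch of ISG20 is chr15:88638866-88639015 on the plus strand, and that of IFI6 is chr1:27672193-27672342 on the minus strand. The stretch of IFI27 is chr14:94110586-94110735 on the plus strand, that of IFI44L is chr1:78620298-78620447 on the plus strand, and that of OAS1 is chr12:112906812-112906961 on the plus strand.
ISG15: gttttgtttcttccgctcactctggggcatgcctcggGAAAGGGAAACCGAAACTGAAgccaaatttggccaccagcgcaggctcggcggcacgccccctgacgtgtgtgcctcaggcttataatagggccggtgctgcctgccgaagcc
EPSTI1: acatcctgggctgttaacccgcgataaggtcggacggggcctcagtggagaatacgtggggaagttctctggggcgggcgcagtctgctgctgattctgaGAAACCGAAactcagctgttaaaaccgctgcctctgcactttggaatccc
LGALS3BP: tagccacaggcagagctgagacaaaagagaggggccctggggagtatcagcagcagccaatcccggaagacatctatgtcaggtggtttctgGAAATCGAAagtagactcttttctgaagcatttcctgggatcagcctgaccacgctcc
ISG20: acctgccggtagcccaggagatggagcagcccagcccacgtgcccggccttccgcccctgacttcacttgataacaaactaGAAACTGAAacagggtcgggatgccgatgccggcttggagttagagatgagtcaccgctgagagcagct
IFI6: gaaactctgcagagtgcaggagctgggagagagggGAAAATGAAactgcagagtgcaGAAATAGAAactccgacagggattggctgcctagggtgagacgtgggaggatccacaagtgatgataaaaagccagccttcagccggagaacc
IFI27: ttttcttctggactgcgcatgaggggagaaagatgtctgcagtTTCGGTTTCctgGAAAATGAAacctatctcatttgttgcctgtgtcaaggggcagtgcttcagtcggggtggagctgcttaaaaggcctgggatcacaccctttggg
IFI44L: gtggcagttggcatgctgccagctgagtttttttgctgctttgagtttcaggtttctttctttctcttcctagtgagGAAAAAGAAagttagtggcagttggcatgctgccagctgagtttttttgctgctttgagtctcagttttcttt
OAS1: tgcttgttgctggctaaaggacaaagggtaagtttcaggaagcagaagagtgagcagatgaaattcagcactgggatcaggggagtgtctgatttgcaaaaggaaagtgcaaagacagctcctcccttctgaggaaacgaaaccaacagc
ISG15 held 3 overlapping matches, whose first bases lay 113, 107 and 101 bases before the start site. IFI6 and IFI27 held 2 matches each, and EPSTI1, LGALS3BP, ISG20 and IFI44L held 1 each.

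Gene reads per library ranged from 8784815 to 14970876. Same-numbered DMSO and GS716054 libraries of a line deviated together within a time in 17 of 18 pairs, so results are given both without the replicate number and from a paired fit, which has a term for each number at each time and was chosen after the data were seen. The labels call the replicates biological but do not say that they were separate cultures, so p-values measure the spread between these libraries, which may be technical. A gene is said to be called where its adjusted p was under 0.05 (edgeR quasi-likelihood test, Benjamini-Hochberg over all genes tested), and log2 differences are GS716054 minus DMSO with their standard error (SE). Low counts kept 14 members out of the tests in MINO, 9 in UPN-1 and 1 (GBP1) in JEKO, so 34, 39 and 47 members were tested. In MINO the untested members were IRF9, USP18, HERC5, HERC6, OASL, IFIT1, IFI44, IFI44L, IFI27, SP100, SP110, RSAD2, CMPK2 and PLSCR1, and in UPN-1 they were IRF9, OASL, IFIT1, IFIT2, IFI44, IFI44L, IFI27, RSAD2 and CMPK2. The 10 B cell markers were detected in every group, while 3 of the 10 myeloid and dendritic markers (S100A8, S100A9 and FCGR3A) were at 0 in all groups. The 10 myeloid and dendritic markers together summed to 64.1 to 211 CPM in the MINO libraries and to at most 4.48 in JEKO and 5.49 in UPN-1. In bulk RNA, a change in the number of cells of a kind and a change in RNA per cell cannot be told apart.

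In DMSO at 24 h, BST2, UBE2L6, ISG15 and ADAR were among the 5 highest members in each line, and several members had no count in MINO or UPN-1. Levels between genes are compared as CPM (read counts normalised to each library's TMM-scaled total) per kb of exon, as mean ± SD over 3 libraries. BST2, the membrane protein tetherin that holds budding virions on the cell, ranked first in each line, at 121 ± 8.82 in MINO, 91.1 ± 8.12 in UPN-1 and 76.2 ± 6.30 in JEKO (n = 3 each). UBE2L6, the conjugating enzyme for ISG15, stood at 35.2 ± 3.00 in UPN-1, 40.2 ± 3.93 in MINO and 51.1 ± 2.79 in JEKO. ISG15 itself, a ubiquitin-like modifier, stood at 32.8 ± 1.77, 29.5 ± 1.75 and 32.3 ± 0.291 CPM per kb in the same order. Its level in JEKO did not differ from that of ADAR, the RNA-editing enzyme next in rank, at 31.7 ± 2.91, beyond the spread. LY6E, a membrane protein that restricts coronavirus entry, ranked second in MINO at 54.8 ± 6.38 but stood at 9.26 ± 1.05 in JEKO and 5.02 ± 1.12 in UPN-1. LGALS3BP, a secreted glycoprotein that binds galectins, stood at 26.4 ± 0.448 in UPN-1, 5.403 ± 0.261 in JEKO and 3.18 ± 0.642 in MINO.

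At the bottom of the order were several classical interferon-induced genes. In JEKO the lowest 3 were IFIT1 with 7 counts in all 3 DMSO libraries, GBP1 with 11 and IRF9 with 13. In MINO, HERC5, USP18, IFI44, IFI44L, CMPK2, SP100 and RSAD2 had no count in any DMSO library at 24 h, and in UPN-1 IFI44L and RSAD2 had none and IFIT1 had 1. The limit that a count of 0 sets is 3 counts, or 0.2 to 0.341 CPM depending on the library, for counting error only. HERC5, the main ISG15 ligase, and RSAD2, the antiviral enzyme viperin, had no count in any of the 12 MINO libraries. SP100, a nuclear body protein, had 31.9, 40.5 and 32.7 CPM in the UPN-1 DMSO libraries at 24 h, against 7.33, 5.71 and 7.64 in JEKO and 0 in each MINO library. These groups of SP100 values did not overlap.

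**Figure D1:**
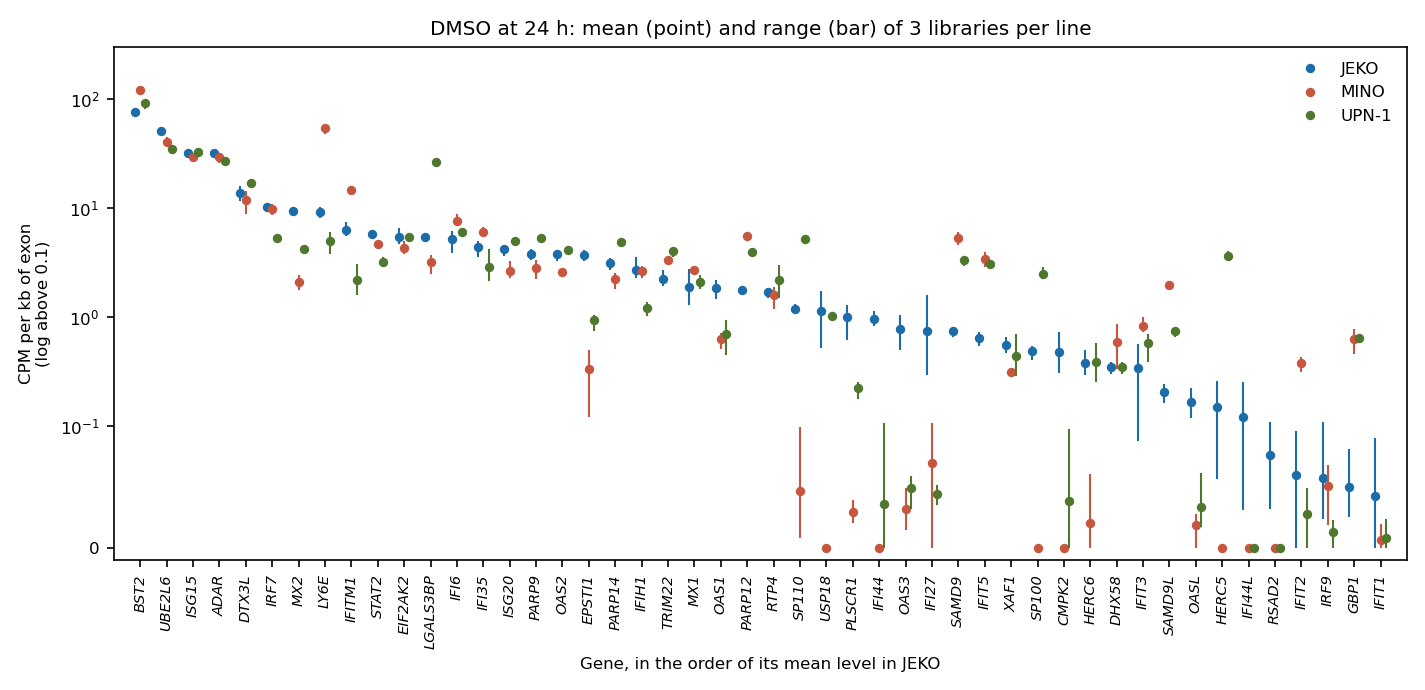
Levels of the 48 genes in DMSO at 24 h, in CPM per kb of exon (log axis above 0.1), with the genes ordered by their JEKO mean. Points are means and bars the range of 3 libraries per line. BST2 is highest in each line (121 in MINO, 91.1 in UPN-1 and 76.2 in JEKO), and several genes towards the right lie at 0 in MINO.

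Tested between lines, 9 members were higher and 14 lower in MINO than in JEKO at 24 h in DMSO, against 22.0% of all genes tested higher and 25.9% lower. UPN-1 exceeded JEKO in 10 members (21.2% of all genes) and fell below it in 11 (23.8%), and UPN-1 exceeded MINO in 11 (23.3%) and fell below it in 6 (21.1%). Of the 48 members tested, these shares lie near those of all genes, except that the share lower in UPN-1 than in MINO, 6 members, was smaller. The list as a whole was not tested. LGALS3BP was higher in UPN-1 than in JEKO by a log2 difference of 2.29 (SE 0.262, edgeR adjusted p = 1.52e-08) and lower in MINO than in JEKO by 0.77 (log2 difference -0.77, SE 0.27, edgeR adjusted p = 0.0194). EPSTI1, a gene named for its induction at epithelial-stromal contacts, was lower in MINO than in JEKO (log2 difference -3.49, SE 0.657, edgeR adjusted p = 5.01e-05). MX2, a GTPase that blocks nuclear entry of HIV, was lower in MINO (-2.18, SE 0.176, edgeR adjusted p = 7.76e-12) and in UPN-1 (-1.16, SE 0.169, edgeR adjusted p = 1.15e-06) than in JEKO. SAMD9, a restriction factor for poxviruses, was higher in MINO than in JEKO by 2.82 (SE 0.291, edgeR adjusted p = 1.65e-09).

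JEKO cells in DMSO held more RNA of many of these genes at 72 h than at 24 h, but not in every library. In replicate 2 at 72 h the members summed to 1289 CPM, against 1305 to 1506 in the DMSO libraries at 24 h. Of 47 members tested, 23 were called higher and 0 lower, against 17.1% of all genes called higher and 14.6% lower. IFIT1 and RSAD2, both among the 23, reached the low-count filter only through the DMSO libraries at 72 h. Of the 23, STAT2, IRF7, IFITM1, LGALS3BP and HERC5 alone stayed called without any 1 of the 12 libraries. Markers of cell types moved in the same comparison: of the 10 B cell markers 6 were called higher and 1 (MS4A1) lower, the T cell marker TRAC and the macrophage marker CD68 were called higher, and the plasma cell markers PRDM1 and JCHAIN lower. Their summed levels in JEKO DMSO overlapped between the times for B cell markers (1871 to 2076 CPM at 24 h and 1901 to 2242 at 72 h) and did not for T and NK cell markers (47.2 to 50.2 and 54.1 to 129). The part of these markers in the result was not tested. The median log2 difference of the members (72 h minus 24 h) was 1.49, against 0.05 over all genes tested. STAT2 had 56.4, 54.8 and 51.2 CPM at 24 h and 234, 116 and 170.1 at 72 h (log2 difference 1.68, SE 0.281, edgeR adjusted p = 0.00142). All 3 STAT2 libraries at 72 h lay above all at 24 h. IRF7, the factor that amplifies interferon production, had 28.8, 25.5 and 26.6 CPM at 24 h and 388, 43.9 and 137 at 72 h (2.82, SE 0.62, edgeR adjusted p = 0.00511). IFITM1, a membrane protein that blocks virus entry, had 12.5, 10.1 and 9.22 CPM at 24 h and 67.6, 17.9 and 37.9 at 72 h (1.96, SE 0.422, edgeR adjusted p = 0.00457). LGALS3BP had 18.1, 17.9 and 19.5 CPM at 24 h and 75.5, 29.9 and 38.2 at 72 h (1.38, SE 0.321, edgeR adjusted p = 0.00688). Not all members took part: the log2 difference was -0.04 for MX2, 0.04 for ADAR, 0.03 for BST2 and -0.01 for SP110 (SE 0.125, 0.183, 0.239 and 0.265), and none of these was called.

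The 3 JEKO libraries of a group at 72 h were far apart in these genes. In the DMSO group the summed level of the 48 members was 4382, 1289 and 2737 CPM in replicates 1, 2 and 3, and in the GS716054 group 2633, 1288 and 1230, where the 6 libraries at 24 h held 1206 to 1506. Replicate 1 held the highest DMSO value of 43 of the 48 members and replicate 2 the lowest of 47. The median SD of log2 CPM over the DMSO libraries at 72 h was 1.16 for the members against 0.28 over all genes tested. IFI44L, an interferon-induced gene of unsettled function, had 159.9, 0.08 and 41.3 CPM in these DMSO libraries, against 0.358, 0.848 and 2.99 at 24 h. IFIT1, which binds viral RNA lacking cap methylation, had 16.8, 0.08 and 10.7 CPM at 72 h, and in replicate 2 this was a level that a count of 0 also allows. The shares of mitochondrial reads in these 3 DMSO libraries were 4.28%, 4.42% and 4.43%, and their gene reads 12328293, 11532872 and 11582552. The number of members called was 6 without DMSO replicate 1 at 72 h and 38 without replicate 2. Their number was 10, 5 and 7 without DMSO replicates 1, 2 and 3 at 24 h. In MINO, 0 of 34 members were called between 72 h and 24 h in DMSO with edgeR (9 at an unadjusted p under 0.05, and 1 with DESeq2), against 0.0932% of all genes. In UPN-1 IFITM1 alone was called higher at 72 h (1.54, SE 0.346, edgeR adjusted p = 0.0444), 1 of 39 members against 1.35% of all genes. No member was called there without any 1 of the 6 libraries at 24 h, of DMSO replicates 1 and 2 or of treated replicate 1 at 72 h, while 4 were without treated replicate 3 and 9 without DMSO replicate 3 at 72 h.

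MINO cells given GS716054 held more RNA of many of these genes than MINO cells in DMSO at 72 h. At 24 h the median log2 difference was 0.20 over the 34 members tested and 0.005 over all genes. The number called was 2 at 24 h and 10 at 72 h, but this order turned round with only the 6 libraries compared (11 and 3), and the direct test of the 72 h effect against the 24 h effect called 0 members, or 1 when paired. At 72 h, 10 of 34 members tested were called higher and 0 lower, against 3.51% of all genes higher and 2.05% lower. In the paired fit 22 were called higher (10.4% of all genes) and 0 lower (9.80%). In all 3 pairs of same-numbered libraries, 26 of the 34 were higher, against 25.1% of all genes tested. The median log2 difference was 0.68 over the 34 members and -0.03 over all genes. Of the 34, 33 would have been tested on the DMSO libraries alone, and OAS3 was tested only because it was higher after GS716054, so that 9 calls (21 paired) are free of this. The 14 members too low to test are in none of these counts, which thus do not describe all 48. The 10 members were EPSTI1, IFIT2, OAS3, LGALS3BP, ISG20, MX1, IFI6, ISG15, TRIM22 and SAMD9.

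EPSTI1 had 0.923, 0.75 and 1.44 CPM in the DMSO libraries at 72 h and 26.9, 18.6 and 11.6 in the GS716054 libraries. The groups were far apart, with a log2 difference of 4.13 (SE 0.548, edgeR adjusted p = 0.00156). LGALS3BP had 9.38, 11.9 and 8.89 CPM in DMSO and 34.4, 43.8 and 31.0 after GS716054. Its groups did not overlap and its log2 ratios in the 3 pairs were 1.82, 1.84 and 1.75 (fitted difference 1.85, SE 0.212, edgeR adjusted p = 0.000586). EPSTI1 lies at chromosome 13, 42886388 to 42992271 on the minus strand, with 14 exon blocks, and LGALS3BP at chromosome 17, 78971238 to 78979947 on the minus strand, with 8 (GRCh38, GENCODE v44). ISG20, an exonuclease that degrades viral RNA, had 23.8, 40.3 and 24.5 CPM in DMSO and 73.3, 83.5 and 73.6 after GS716054 (1.37, SE 0.231, edgeR adjusted p = 0.00516). Each treated ISG20 library lay above each DMSO library.

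Of the transcription factors, STAT2 had 72.1, 69.3 and 64.8 CPM in DMSO at 72 h and 84.2, 120 and 91.4 after GS716054 (0.50, SE 0.142, edgeR adjusted p = 0.0581, and 0.0132 in the paired fit). IRF7 had 26.6, 60.4 and 28.3 CPM in DMSO and 65.4, 84.9 and 69.6 after GS716054 (0.93, SE 0.258, edgeR adjusted p = 0.0542, and 0.000949 paired). For both genes the treated libraries lay above the DMSO libraries without overlap. IRF9, a subunit of ISGF3, had 0.538, 0.321 and 0.653 CPM in DMSO and 1.65, 2.09 and 0.569 after GS716054 and was too low to test. Of IRF9's exon length, 23.9% overlaps another gene on the same strand in the annotation, so its counts are uncertain. Such overlaps also touch IFI6 (23.1%), IFITM1 (21.1%) and IFIT2 (12.1%). XAF1 overlaps a gene on the opposite strand over 38.3% of its exon length. These limits hold in every line. Of the RNA sensors, DHX58 (LGP2), a regulator of the sensors RIG-I and MDA5, was called higher in the paired fit only (0.87, SE 0.261, edgeR adjusted p = 0.0311). IFIH1, which encodes MDA5, had 14.2, 9.64 and 11.8 CPM in DMSO and 18.3, 14.2 and 15.8 after GS716054 and was called in neither fit (0.42, SE 0.187, edgeR adjusted p = 0.208).

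In the ISG15 system, ISG15 had 17.2, 21.1 and 19.7 CPM in DMSO at 72 h and 40.3, 33.6 and 38.2 after GS716054 (0.94, SE 0.146, edgeR adjusted p = 0.00365). The ISG15 groups did not overlap. USP18, which removes ISG15 from proteins, had at most 0.196 CPM in the DMSO libraries and 0.825, 0.363 and 0.474 after GS716054, too few counts for the test. Among the OAS genes, which make the second messenger that activates RNase L, OAS3 had 0.0769, 0.643 and 0.523 CPM in DMSO and 2.59, 1.82 and 2.65 after GS716054. Its DMSO values are at or near the level that a count of 0 allows and it reached the filter only through the treated libraries, so its difference is given by these values and no p. OAS1 had 4.92, 42.1 and 4.97 CPM in DMSO and 36.04, 47.7 and 34.8 after GS716054. Replicate 2 of the MINO DMSO group at 72 h thus stood apart, also with 175 CPM of DTX3L against 47.99 and 49.1 in the other DMSO replicates. OAS1 was called in the paired fit (1.80, SE 0.4, edgeR adjusted p = 0.00685) and not without it (1.22, SE 0.609, edgeR adjusted p = 0.264).

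IFIT2, a translation inhibitor, had 0.923, 1.499 and 1.63 CPM in DMSO and 4.83, 14.4 and 4.93 after GS716054 (2.56, SE 0.464, edgeR adjusted p = 0.0075). Its treated libraries lay above its DMSO libraries. MX1, the GTPase that blocks influenza virus, had 56.4, 42.7 and 60.8 CPM in DMSO and 166, 95.2 and 82.8 after GS716054 (1.09, SE 0.253, edgeR adjusted p = 0.026). IFI6, an inner-membrane protein of mitochondria and the endoplasmic reticulum, had 6.31, 9.75 and 7.51 CPM in DMSO and 18.0, 18.9 and 11.8 after GS716054 (1.04, SE 0.226, edgeR adjusted p = 0.0194). TRIM22, a ubiquitin ligase, had 51.3, 43.0 and 53.7 CPM in DMSO and 93.8, 87.5 and 75.2 after GS716054 (0.78, SE 0.15, edgeR adjusted p = 0.0103). SAMD9 had 34.99, 27.95 and 36 CPM in DMSO and 48.3, 66.5 and 48.04 after GS716054 (0.70, SE 0.162, edgeR adjusted p = 0.0256). In each of these genes the groups were apart. The paired fit added IFIT5, MX2, IFI35, PARP9, PARP12, SAMD9L, BST2 and XAF1 to STAT2, IRF7, DHX58 and OAS1, with XAF1, a partner of apoptosis inhibitors, the most different at 1.95 (SE 0.472, edgeR adjusted p = 0.0107). EIF2AK2 (the kinase PKR), ADAR, IFIH1, UBE2L6, OAS2, IFIT3, IFITM1, GBP1, PARP14, DTX3L, LY6E and RTP4 were tested and called in neither fit.

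LGALS3BP, EPSTI1, ISG20, IFIT2, TRIM22 and ISG15 were called without any 1 of the 12 libraries, while MX1 was called in 8 and IFI6 and SAMD9 in 9 of these 12 fits. Leaving out either DMSO replicate 1 or DMSO replicate 3 at 72 h reduced the 10 calls to 6, and there were 3 with only the 6 libraries compared. In the paired fit the calls numbered 16, 25 and 20 without pairs 1, 2 and 3. B cell markers moved with the treatment in MINO: their summed level was 3782 to 5207 CPM in DMSO and 6045 to 7618 after GS716054 at 72 h, and 2 of 10 (MS4A1 and CD79A) were called higher. The paired fit called 5 of the 10 higher (10.4% of all genes) and the plasma cell markers XBP1, TNFRSF17 and MZB1 lower (9.80%). The 10 T and NK cell markers summed to 78.6 to 122 CPM in DMSO and 140 to 205 after GS716054, without overlap. TRAC was called higher among them (0.86, SE 0.184, edgeR adjusted p = 0.0189), as was CD8A in the paired fit (0.87, SE 0.185, edgeR adjusted p = 0.00503), and CD3D, CD3G, CD2, KLRD1 and NCAM1 were at 0 in both groups. PECAM1 was called higher among the stromal and epithelial markers, and the summed myeloid and dendritic markers were 98.7 to 190.3 CPM in DMSO and 131 to 184 after GS716054, with LYZ (1 count in the DMSO libraries and 20 in the treated) and ITGAM (27 and 55) called higher in the paired fit. The part of these markers in the results was not tested.

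**Figure D2:**
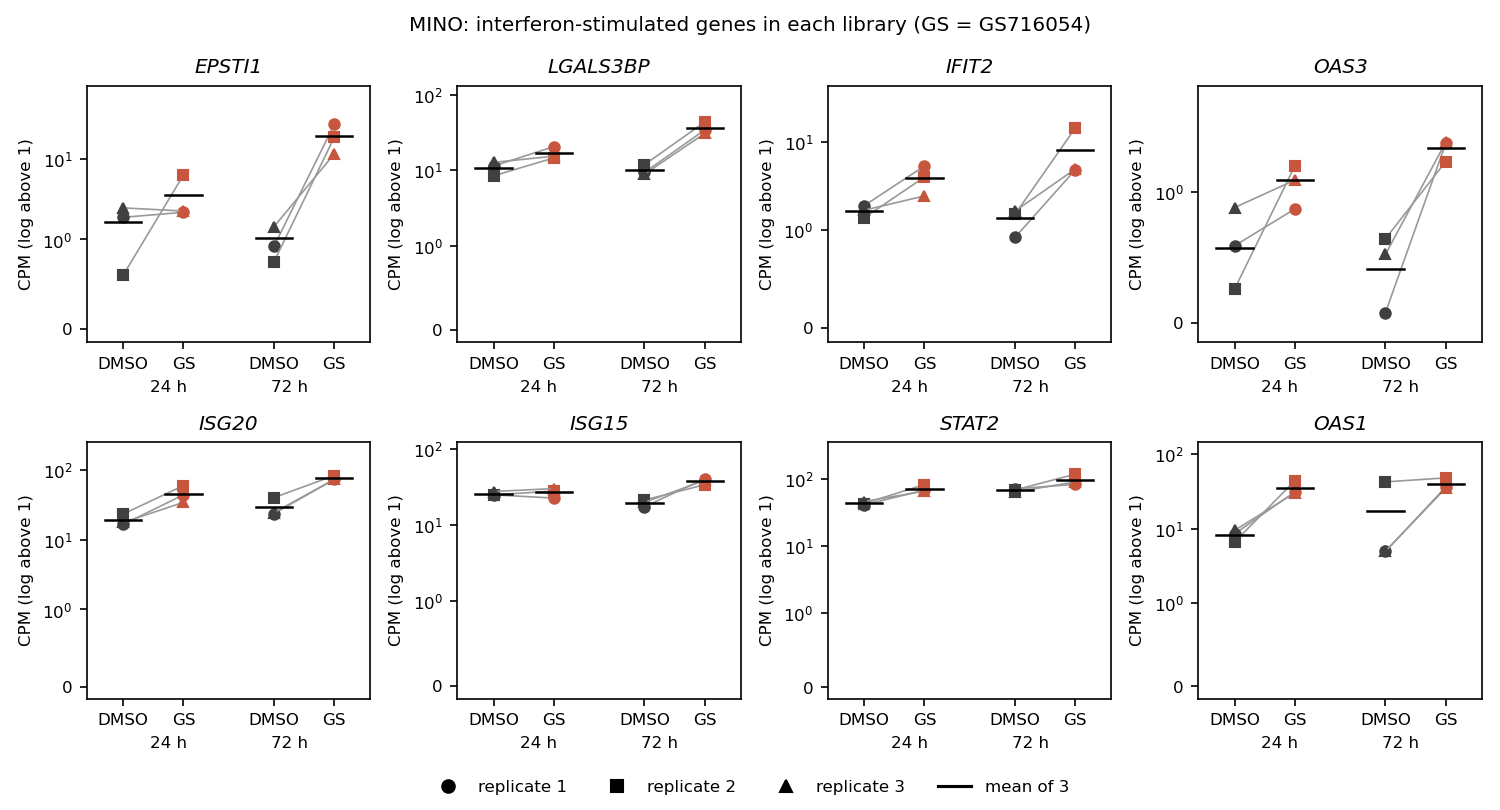
CPM of 8 members in each MINO library (log axis above 1, linear below), at 24 h on the left and 72 h on the right of each panel. Grey lines join DMSO and GS716054 libraries of the same replicate number and black bars are means of 3. EPSTI1 and LGALS3BP separate fully at 72 h, and OAS1 shows the DMSO replicate 2 at 42.1 CPM beside 4.92 and 4.97.

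At 24 h in MINO, STAT2 and ISG20 were the 2 members called, both higher, against 1.44% of all genes. The median log2 ratio over the 48 members was 0.000, 0.257 and 0.102 in pairs 1, 2 and 3. STAT2 had 41.6, 43.5 and 46.6 CPM in DMSO and 68.9, 83.5 and 66.6 after GS716054 (0.70, SE 0.144, edgeR adjusted p = 0.0274). ISG20 had 16.6, 23.4 and 17.7 CPM in DMSO and 44.1, 59.8 and 34.4 after GS716054 (1.23, SE 0.234, edgeR adjusted p = 0.0213). For both genes the groups did not overlap. Both calls were lost, and the count was 0, without any 1 of the 3 DMSO libraries or of treated replicates 1 and 2 at 24 h. It was 1 without treated replicate 3, 5 without DMSO replicate 2 at 72 h, 5 with DESeq2 and 11 with only the 6 libraries compared. The paired fit called 10 members higher (8.43% of all genes) and 1 lower (7.36%), and 6, 2 and 6 members in all without pairs 1, 2 and 3. The 10 were STAT2, IRF7, DHX58, OAS1, IFIT2, IFI6, PARP9, ISG20, TRIM22 and LGALS3BP, and the same 10 were also called higher at 72 h, as were 57.5% of all genes called higher at 24 h. OAS1 had 8.48, 6.59 and 9.43 CPM in DMSO and 31.0, 43.7 and 30.0 after GS716054, with the treated libraries well above (2.06, SE 0.403, paired edgeR adjusted p = 0.00406). EIF2AK2, which halts translation on sensing double-stranded RNA, was the member that fell in the paired fit (-0.58, SE 0.119, edgeR adjusted p = 0.00545), from 46.4, 41.9 and 55.3 CPM to 35.1, 29.2 and 33.7. The summed B cell markers were 3746 to 4506 CPM in DMSO and 6649 to 7240 after GS716054 at this time, the T and NK cell markers 80.3 to 104 and 156 to 182, and the myeloid and dendritic markers 64.1 to 67.5 and 126 to 211. None of these 3 sums overlapped between the groups. TRAC and LILRA4, a receptor of plasmacytoid dendritic cells, were called higher without pairing, as were the B cell markers MS4A1, CD79B and CD22, and CD8A, LYZ, ITGAM and CLEC4C in the paired fit. The paired fit also called 9 of the 10 B cell markers higher (8.43% of all genes) and the plasma cell markers XBP1 and MZB1 lower (7.36%). The part of these markers in the MINO calls at 24 h was not tested.

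JEKO cells given GS716054 for 72 h held less RNA of many of these genes than same-numbered DMSO cells, but the spread between pairs was wide. Without the replicate number, 0 of 47 members were called (12 at an unadjusted p under 0.05, and 0.300% of all genes called). In the paired fit 18 were called lower, against 1.44% of all genes, and 0 higher. In all 3 pairs, 28 members were lower, against 18.4% of all genes tested, and 1 was higher. The median log2 difference of the members was -0.93 against 0.00 over all genes. With no filter on low counts and no pairing, 28 members were called, all lower, against 0.461% of all genes called lower. Other unpaired settings did not give this. With the filter, 0 members were called without any 1 of the 12 libraries. With the replicate number as 1 term across the line, 1 was called. Of the plasma cell markers, PRDM1 was called higher in the same comparison (1.34, SE 0.228, edgeR adjusted p = 0.0225), and in the paired fit SDC1, SLAMF7, MS4A1, CD3D and CD3G were also called higher and CD37, FCMR and TNFRSF17 lower. CD3D had 7 counts in the 3 DMSO libraries and 81 in the treated, and the summed T and NK cell markers (54.1 to 129 CPM in DMSO and 63.5 to 94.6 after GS716054) and B cell markers (1901 to 2242 and 1863 to 2142) overlapped. The part of these markers in the JEKO result was not tested.

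MX1 had 468, 27.0 and 254.5 CPM in DMSO replicates 1, 2 and 3 and 198, 19.2 and 20.2 after GS716054. Each treated library lay below its same-numbered DMSO library, yet the groups overlapped (paired difference -1.77, SE 0.423, edgeR adjusted p = 0.0445, and 0.671 without pairing). IFI27, a mitochondrial protein used as a blood marker of interferon exposure, had 113, 0.079 and 5.33 CPM in DMSO and 18.0, 0.145 and 0.688 after GS716054 (paired -2.64, SE 0.262, edgeR adjusted p = 0.000612). Replicate 2 of both groups was at the level that a count of 0 allows, so 2 pairs carry that IFI27 value. IFITM1 had 67.6, 17.9 and 37.9 CPM in DMSO and 28.5, 11.7 and 12.2 after GS716054 (paired -1.18, SE 0.169, edgeR adjusted p = 0.00436). Its log2 ratios in the pairs were -1.24, -0.60 and -1.60. TRIM22 had 121, 34.4 and 82.9 CPM in DMSO and 78.4, 24.6 and 33.0 after GS716054 (paired -0.81, SE 0.15, edgeR adjusted p = 0.015), lower in each pair.

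USP18, the feedback protease, had 39.8, 1.98 and 22.3 CPM in DMSO and 14.6, 1.23 and 2.69 after GS716054 (paired -1.88, SE 0.335, edgeR adjusted p = 0.0124). OAS3 had 55.6, 5.45 and 42.9 CPM in DMSO and 21.9, 3.83 and 5.09 after GS716054 (paired -1.73, SE 0.326, edgeR adjusted p = 0.0168). Both were lower in each pair, least so in pair 2. XAF1 had 154, 3.32 and 44.8 CPM in DMSO and 61.7, 2.96 and 5.65 after GS716054 (paired -1.68, SE 0.334, edgeR adjusted p = 0.0218), and 38.3% of its exon length overlaps an antisense gene, whose reads cannot be told apart from its own where counting ignored strand. CMPK2, a mitochondrial nucleotide kinase, had 25.2, 0.316 and 20.8 CPM in DMSO and 8.94, 0.434 and 1.03 after GS716054 (paired -2.33, SE 0.498, edgeR adjusted p = 0.0273), higher in pair 2. The other members called in the paired fit were HERC5, OASL, IFIT1, IFIT5, IFI44, IFI6, IFI35, PARP14, SAMD9L and PLSCR1, with paired log2 differences from -0.77 for IFI35 to -2.60 for IFIT1, which alone among the 18 reached the filter only through the DMSO libraries.

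Of these 18 members by role, 2 belong to the ISG15 system, 2 to the OAS genes, 3 to the IFIT and IFITM families, 4 to the IFI genes, 4 to the further antiviral effectors and 1 each to the GTPases, the PARP and nuclear body genes and the remaining genes, and none to the transcription factors or RNA sensors. STAT2 had 234, 116 and 170.1 CPM in DMSO and 202, 89.97 and 104 after GS716054 (paired -0.43, SE 0.109, edgeR adjusted p = 0.0587). LGALS3BP went the other way in each pair, with 75.5, 29.9 and 38.2 CPM in DMSO and 91.7, 50.9 and 42.1 after GS716054, and was not called (0.36, SE 0.309, edgeR adjusted p = 0.866). The paired count of 18 was 7 without pair 1, 21 without pair 2 and 1 (IFI27) without pair 3. The median log2 ratio over the 48 members was -0.87, -0.11 and -1.60 in pairs 1, 2 and 3. Pair 2 showed the smallest median difference. The summed level of the members in its DMSO library, 1289 CPM, lay within the range of the JEKO libraries at 24 h (1206 to 1506). Single members did not all stand at their 24 h level there: STAT2 lay above, and IFI44L below, all JEKO DMSO values at 24 h. Whether the DMSO level had a part in the difference was not tested. Without DMSO replicate 1 the unpaired differences of IFI44, IFI6 and IFI27 changed sign to 0.09, 0.20 and 1.18.

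**Figure D3:**
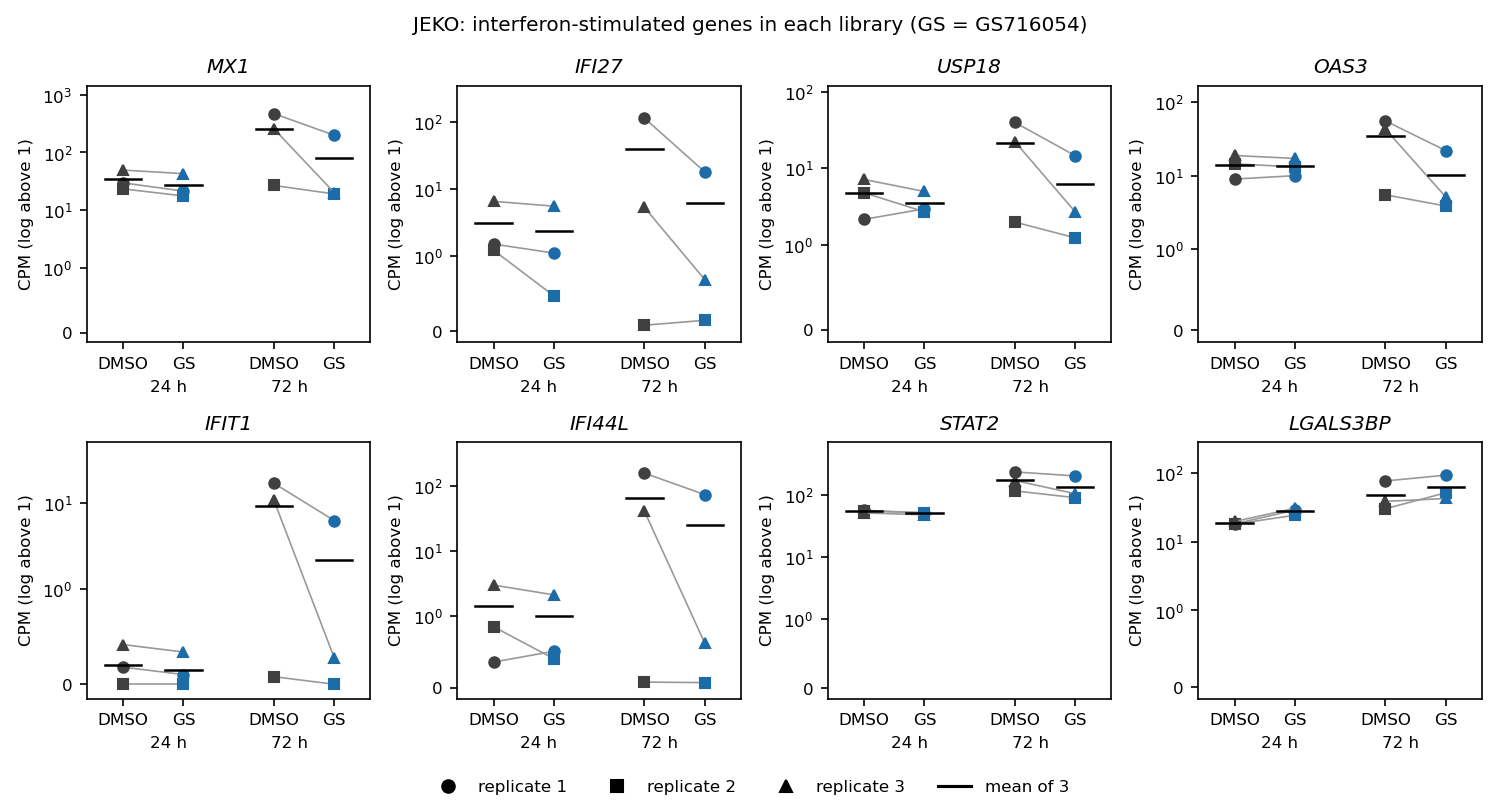
CPM of 8 members in each JEKO library (log axis above 1, linear below), at 24 h on the left and 72 h on the right of each panel, drawn as for MINO. At 72 h the DMSO libraries of MX1 run from 27.0 to 468 CPM, replicate 2 lies lowest, and lines to the GS716054 libraries slope down except for LGALS3BP and for single low pairs.

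At 24 h in JEKO, 0 of 47 members were called with edgeR (0 at an unadjusted p under 0.05, 0 with DESeq2), against 0.0180% of all genes, and the median log2 difference was -0.27. ISG15 had 28.1, 27.7 and 28.2 CPM in DMSO and 21.3, 9.69 and 25.1 after GS716054 (-0.60, SE 0.632, edgeR adjusted p = 1). LGALS3BP had 18.1, 17.9 and 19.5 CPM in DMSO and 28.6, 24.0 and 30.3 after GS716054 (0.57, SE 0.321, edgeR adjusted p = 1). Neither gene was called. Both were picked after their values were seen, so the lack of overlap between their groups, in opposite directions, does not establish a difference.

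In UPN-1 few members were called, and in both directions. At 72 h, MX1 was the 1 member of 39 called, and it was lower, against 0.0590% of all genes called lower. MX1 had 53.2, 50.4 and 41.8 CPM in DMSO and 31.2, 28.3 and 24.7 after GS716054 (-0.77, SE 0.151, edgeR adjusted p = 0.0404). The groups did not overlap, and the call was kept without any 1 of 4 libraries and lost without any 1 of the other 8, controls among them: DMSO replicates 1 and 2 and treated replicates 2 and 3 at 24 h, and DMSO replicate 1 and all 3 treated replicates at 72 h. The median log2 difference over the members was -0.20, against 0.00 over all genes. The paired fit called 3 members higher (4.18% of all genes), BST2, LGALS3BP and LY6E, and 5 lower (3.29%), HERC5, MX1, SP100, SAMD9L and TRIM22. The paired count of 8 was 15 without pair 2. Of the cell type markers, the paired fit called MS4A1, CD79A, PRDM1, SDC1 and KRT8 higher (4.18% of all genes). It called BLK, TNFRSF17 and JCHAIN lower (3.29%), and no marker was called without pairing. The part of these markers in the UPN-1 result was not tested.

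BST2 had 90.4, 99.3 and 99.6 CPM in DMSO and 114, 134 and 126 after GS716054 at 72 h (paired 0.38, SE 0.0617, edgeR adjusted p = 0.000487). LY6E had 21.9, 21.99 and 12.3 CPM in DMSO and 35.4, 34.4 and 27.0 after GS716054 (paired 0.83, SE 0.113, edgeR adjusted p = 9.48e-05). Neither gene's groups overlapped. SAMD9L, an inhibitor of translation related to SAMD9, had 6.18, 10.6 and 6.07 CPM in DMSO and 2.74, 4.87 and 3.43 after GS716054 (paired -1.03, SE 0.188, edgeR adjusted p = 0.00156). HERC5 had 14.9, 16.4 and 15.6 CPM in DMSO and 10.7, 10.9 and 11.5 after GS716054 (paired -0.48, SE 0.117, edgeR adjusted p = 0.0142). Both fell without overlap between the groups. LGALS3BP had 139, 148 and 94.8 CPM in DMSO and 159, 172 and 128 after GS716054 (paired 0.30, SE 0.0639, edgeR adjusted p = 0.00597), higher in each pair though the groups overlapped.

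At 24 h in UPN-1, 0 of 39 members were called without pairing by edgeR (8 at an unadjusted p under 0.05, 0 with DESeq2), against 0.0262% of all genes. The paired fit called BST2 and LY6E higher (0.918% of all genes) and MX1, PARP14 and TRIM22 lower (0.577%). BST2 had 104, 107 and 90.2 CPM in DMSO and 154, 145 and 123 after GS716054 (paired 0.48, SE 0.0621, edgeR adjusted p = 0.000273). MX1 had 43.7, 37.4 and 32.8 CPM in DMSO and 31.4, 23.4 and 26.0 after GS716054 (paired -0.50, SE 0.0902, edgeR adjusted p = 0.00599). Both genes' groups were apart. The count of 5 was 1, 1 and 2 without pairs 1, 2 and 3. Of the cell type markers, the paired fit called SDC1 and VIM higher and PECAM1 lower, and none was called without pairing. Their part in the UPN-1 calls at 24 h was not tested.

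**Figure D4:**
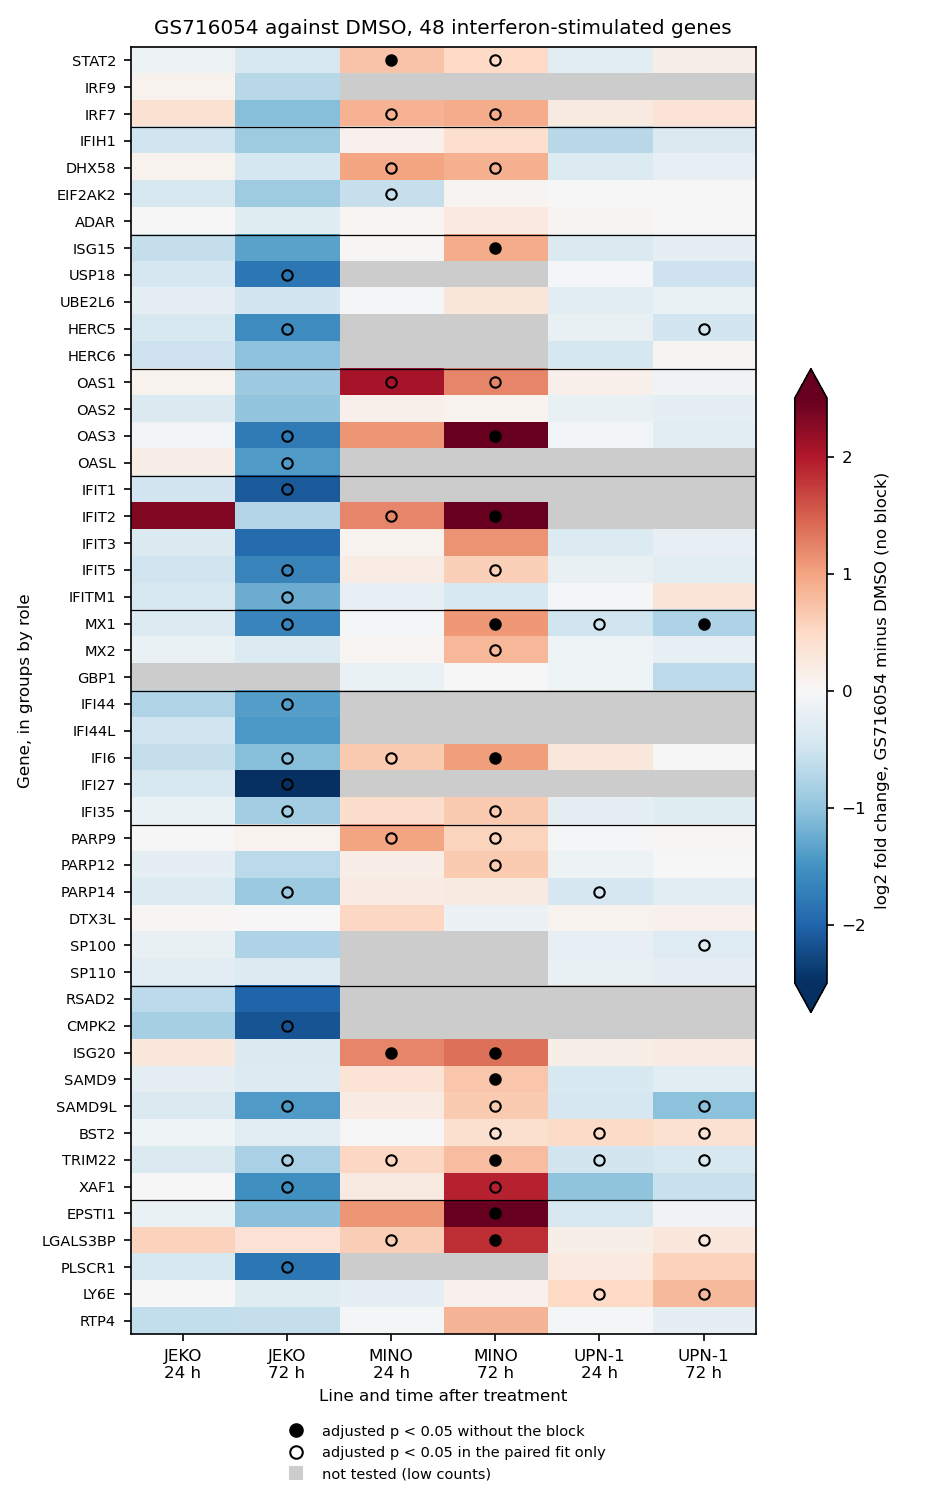
Log2 fold change (GS716054 minus DMSO, no pairing) of the 48 genes in each line and time, in groups by role. Filled dots mark members called without pairing, open dots those called in the paired fit only, and grey cells were not tested. The MINO 72 h column is mostly higher (10 filled dots), the JEKO 72 h column mostly lower (18 open dots) and UPN-1 is mixed.

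More of these genes were called for an effect of GS716054 that differed among the lines at 72 h than at 24 h, as were more of all genes. Whether the difference among lines itself changed between the times was not tested. A test that the effect was equal in the 3 lines called 4 of 48 members at 72 h, against 1.01% of all genes, and 33 in the paired fit, against 9.78%. EPSTI1 had log2 differences of 4.13 in MINO, -1.04 in JEKO and -0.10 in UPN-1 (edgeR adjusted p = 0.00261). MX2 had 0.84, -0.34 and -0.20 in the same order (edgeR adjusted p = 0.012). LGALS3BP had 1.85, 0.36 and 0.28 (edgeR adjusted p = 0.026), above 0 in each line and largest in MINO. OAS3 had 2.497, -1.76 and -0.27 (edgeR adjusted p = 0.044). Instead of 4 members, 2 were called without MINO DMSO replicate 1, MINO DMSO replicate 3 or MINO treated replicate 2 at 72 h. The count was 13 without JEKO DMSO replicate 2 and 18 without JEKO treated replicate 1 at 72 h. At 24 h, 0 members were called (3 at an unadjusted p under 0.05 with edgeR, against 0.106% of all genes called), and in the paired fit 6 were (5.74% of all genes): STAT2, OAS1, IFI6, PARP9, ISG20 and TRIM22.

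The lines share no libraries, so their paired calls at 72 h can be set side by side. In all, 34 of the 48 members were called in at least 1 line, against 22.7% of all genes tested in a line. Of these, 8 were lower in JEKO and higher in MINO, against 0.195% of the genes tested in both: OAS3, IFIT5, MX1, IFI6, IFI35, SAMD9L, TRIM22 and XAF1. OAS3 is the one of these that reached the filter in MINO only through the treated libraries. They make up 8 of the 18 called lower in JEKO and 8 of the 22 called higher in MINO. HERC5, MX1, SAMD9L and TRIM22 were lower in both JEKO and UPN-1, and MX1, SAMD9L and TRIM22 were thus lower in these and higher in MINO. All of these JEKO calls were lost without pair 3. The paired fit then called 1 member in JEKO, IFI27, which was untested in MINO and UPN-1. Without pairing, 0 members were called in JEKO at 72 h. SAMD9L had 21.2, 10.1 and 15.8 CPM in DMSO and 28.9, 29.2 and 17.0 after GS716054 in MINO, and 17.1, 0.474 and 11.7 against 9.24, 0.361 and 1.51 in JEKO. BST2 and LGALS3BP were higher in both MINO and UPN-1, and no member was called in the same direction in all 3 lines.

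**Figure D5:**
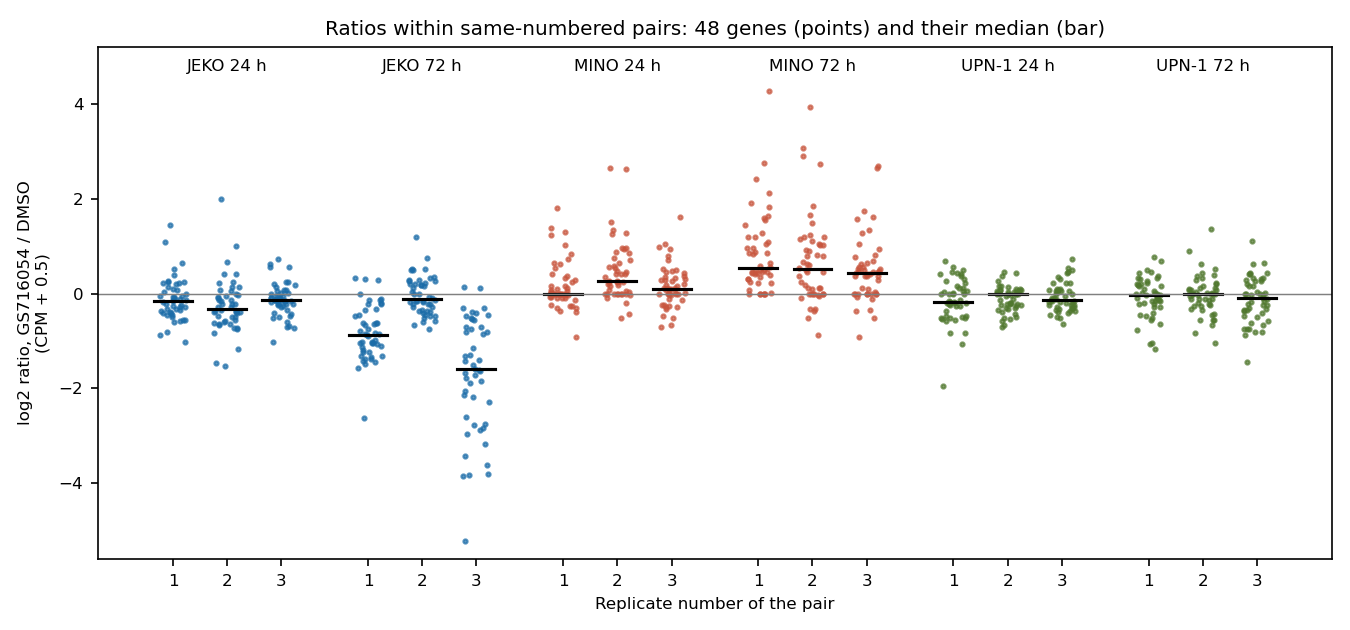
Log2 ratio of GS716054 to DMSO CPM (0.5 CPM added to both) of each of the 48 genes in each same-numbered pair, by line and time, with the median as a black bar. The medians of the MINO 72 h pairs are 0.53, 0.51 and 0.43, and those of the JEKO 72 h pairs -0.87, -0.11 and -1.60.

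The difference between the effect at 72 h and at 24 h was tested within each line. With edgeR and no pairing 0 members were called in MINO (0.0133% of all genes), UPN-1 (0%) or JEKO (0%), with 6, 0 and 0 members at an unadjusted p under 0.05, and DESeq2 called 2 in MINO. In the paired fit LGALS3BP in MINO was called, 1 of 34 members against 0.679% of all genes, with an effect larger by 1.23 at 72 h (SE 0.214, edgeR adjusted p = 0.023). Its effect was 0.61 at 24 h and 1.85 at 72 h.

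The rest of the pathway was followed in lists of genes outside the 48. Of 21 interferon genes (type I, II and III), 14 had no count in any of the 36 libraries, and the other 7 had 81 counts in all and at most 8 in a library, too few to test. These were IFNA21 and IFNW1 with 30 each, IFNB1 with 12, IFNA7 and IFNA16 with 3 each, IFNA5 with 2 and IFNA10 with 1. IFNB1, the interferon that most cells make first, had 6, 0 and 3 counts in JEKO DMSO replicates 1, 2 and 3 at 72 h and 0 in each JEKO library given GS716054 at that time. That order of the DMSO replicates is also the order of their summed member levels (4382, 1289 and 2737 CPM). It rests on a total of 9 IFNB1 counts, and the part of IFNB1 in the result was not tested. Over all JEKO libraries, IFNA21 had 29 counts and IFNW1 24, against 11 of IFNB1. Among the receptor and signalling genes, JAK1 was called higher in MINO at 72 h (0.81, SE 0.201, edgeR adjusted p = 0.0342). Without pairing, none of this list was called for GS716054 against DMSO in the other lines or in MINO at 24 h. In the paired fit 7 of 16 tested were called higher in MINO at 24 h (8.43% of all genes), namely IFNAR2, IFNGR2, IFNLR1, IL10RB, JAK1, JAK2 and STAT3, and 0 lower. At 72 h, IFNAR2, JAK1 and the feedback inhibitor SOCS1 were called higher and the phosphatase PTPN2 lower there, while SOCS3 was called higher in JEKO and SOCS1 in UPN-1. In JEKO in DMSO, TYK2 was called higher and PTPN11 lower at 72 h than at 24 h.

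Of the 10 further interferon regulatory factors and related genes, none was called for GS716054 against DMSO without pairing in any line. In JEKO in DMSO, of 9 tested, 3 (IRF1, IRF4 and IRF5) were called higher (17.1% of all genes) and 1 (ETV7) lower (14.6%) at 72 h than at 24 h. IRF1, which is induced mainly by interferon gamma, was lower in JEKO at 72 h in the paired fit (-0.84, SE 0.113, edgeR adjusted p = 0.0031) and higher in MINO (0.41, SE 0.123, edgeR adjusted p = 0.0317). IRF4, a factor of plasma cell differentiation, was lower in all 3 lines at 72 h in the paired fit, with log2 differences of -0.50 in UPN-1, -0.66 in MINO and -0.60 in JEKO (edgeR adjusted p = 3.45e-05, 0.00335 and 0.0354). Of 20 nucleic acid sensing genes, AIM2, a sensor of cytosolic DNA, was called higher in MINO at 24 h (1.13, SE 0.18, edgeR adjusted p = 0.01) and at 72 h (1.54, SE 0.179, edgeR adjusted p = 0.000633). TLR7, a sensor of single-stranded RNA, was called higher in MINO at 24 h (0.84, SE 0.174, edgeR adjusted p = 0.0293), and MYD88, the adaptor of Toll-like receptors, at 72 h (0.68, SE 0.123, edgeR adjusted p = 0.0075). Paired calls of this list went in both directions. In MINO, of 16 tested, 4 were higher (8.43% of all genes) and 2 (TRIM25 and PNPT1) lower (7.36%) at 24 h. At 72 h 6 were higher there (10.4%) and 1 (PNPT1) lower (9.80%). RIGI, the sensor of viral RNA ends, was among the 6 (0.89, SE 0.23, edgeR adjusted p = 0.0155). In JEKO at 72 h, 4 of 16 were called lower (1.44% of all genes) and 0 higher: TLR7 (-0.74, SE 0.117, edgeR adjusted p = 0.00669), IFI16, TICAM1 and TRAF3. In UPN-1 at 72 h, CGAS and its adaptor STING1 (0.67, SE 0.194, edgeR adjusted p = 0.038) were called higher and IFI16 lower (-0.46, SE 0.0714, edgeR adjusted p = 0.000373), of 14 tested. Of all genes, 4.18% were called higher and 3.29% lower there.

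A list of 77 other interferon-induced genes, some of which stand in the lists above, had calls in both directions in MINO. In MINO at 72 h, 63 of them were tested, 6 were called higher (3.51% of all genes) and 2 lower (2.05%), and in the paired fit 14 higher (10.4%) and 6 lower (9.80%). TDRD7 (1.43, SE 0.349, edgeR adjusted p = 0.0324) and SLFN5 (1.34, SE 0.242, edgeR adjusted p = 0.0075) were among the 6, and TRIM14 (-0.84, SE 0.174, edgeR adjusted p = 0.0156) and WARS1, a tryptophan tRNA synthetase (-1.43, SE 0.198, edgeR adjusted p = 0.00179), were the 2. The median of this list was 0.22 in MINO and -0.33 in JEKO at 72 h, against 0.68 and -0.93 for the 48. For GS716054 against DMSO, no gene of it was called in JEKO or UPN-1 without pairing, and in the paired fit at 72 h 6 of 61 were called lower in JEKO (1.44% of all genes) and 7 of 62 in UPN-1 (3.29%), with 0 higher in either. In JEKO in DMSO, 15 of 61 were called higher (17.1% of all genes) and 3 lower (14.6%) at 72 h than at 24 h, and in UPN-1 in DMSO HSH2D and NLRC5 were called higher (1.35%).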

How the data were processed

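For each library the authors deposited raw counts, unnormalised whole numbers for 58302 Ensembl gene IDs with 5 summary lines of the counter. HISAT2 2.2.1, HTSeq 0.13.5 and GRCh38 are named in the submitters' processing notes, and RNA came from a Qiagen mRNA kit per the labels. Annotation release and strandedness are not given in the sources used here. The summary lines, 55.09% to 59.3% of each library's reads (43.25% to 45.93% in no feature), were left out of library sizes and tests. Gene reads per library ranged from 8784815 to 14970876, and intervals or limits from counts cover counting error only. Gene symbols came from GENCODE v44 by ID (57532 matched).

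The counts were fitted with edgeR 4.0.16 in R 4.3.3, using TMM scaling, filterByExpr (min.count 10, min.total.count 15) and quasi-likelihood tests, adjusted by Benjamini-Hochberg over all genes tested (16690 in JEKO, 15028 in MINO, 15248 in UPN-1). Each line's 12 libraries formed 1 fit with 8 residual degrees of freedom. Differences between lines came from a fit of all 36 libraries (17980 genes, 24 degrees of freedom). Same-numbered DMSO and GS716054 libraries deviated together from their group means within a time, with correlations of 0.055 to 0.593 over 18 pairs (over 0.1 in 17, not in 1 pair of JEKO at 24 h). The pairing comes from these correlations, as the labels do not state what a number shares. The paired fit leaves 4 residual degrees of freedom per line. The fits were tested on simulated data. Alternatives were other scaling, filters, tools (DESeq2 1.42.0), libraries and blocks, and leaving out single libraries.

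The members, gene lists and tests were chosen with earlier results of these data known, so no count here is independent support of them. Values in every library are given for STAT2, IRF9, IRF7, USP18, ISG15 and IFIH1 where most members were called, for members called (up to 10 per comparison by size), for members called alike in 2 or more lines, and for the 3 highest and 3 lowest DMSO levels per line. IFI44L, OAS1, DTX3L, EIF2AK2, CMPK2, XAF1, and LGALS3BP and ISG15 in JEKO were added after their values were seen. A gene of the signalling list is not reported here.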

Additional observations from a re-analysis of the deposited data

Results flagged for a closer look

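The effect of GS716054 differed among the 3 lines for EPSTI1, MX2, LGALS3BP and OAS3 at 72 h, by a test of the difference itself on all 36 libraries (edgeR adjusted p = 0.00261, 0.012, 0.026 and 0.044). In the paired fit 33 members differed among the lines at 72 h and 6 at 24 h, at an edgeR adjusted p under 0.05. For LGALS3BP in MINO, the effect at 72 h exceeded that at 24 h in the paired fit (edgeR adjusted p = 0.023). Groups of 3 libraries are too small to test for a single outlying library, so the JEKO libraries at 72 h and MINO DMSO replicate 2 at 72 h are described by their values above.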

How the results depend on the processing

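Values are counts of members called, in any direction, at an edgeR adjusted p under 0.05 unless DESeq2 is named, and the cause of each change was not tested. Without the low-count filter, treatment counts were 1 and 28 in JEKO (24 h and 72 h), 6 and 16 in MINO (same order) and 3 in UPN-1 (72 h). The differences between times were then 6 in JEKO and 3 in MINO, DMSO over time gave 36 for JEKO, 8 for MINO and 7 for UPN-1, and the test among lines gave 6 (24 h) and 31 (72 h). DESeq2 called 5 in MINO at 24 h, 3 for UPN-1 at 72 h, 2 for the difference between times in MINO, and for DMSO over time 1 in MINO and 5 in UPN-1. With the replicate block (the number as 1 term across a line), counts were 1 for JEKO at 72 h, 6 and 16 for MINO (24 h and 72 h), 2 for UPN-1 at 72 h, and for DMSO over time 4 in MINO and 9 in UPN-1. With the replicate block within each time, chosen after seeing the data, they were 18 for JEKO at 72 h, 11 and 22 for MINO, 5 and 8 for UPN-1, 1 for the difference between times in MINO, and 6 and 33 among lines. In JEKO at 24 h, where 1 pair did not deviate together, this block called 0 members and 15 of 16690 genes. With only the 6 libraries compared, counts were 11 and 3 for MINO and 0 for UPN-1 at 72 h, and with all 36 libraries 6 for MINO and 0 for UPN-1 at 72 h. Leaving out 1 library gave, for DMSO over time, 5 to 38 (JEKO), 0 to 1 (MINO) and 0 to 9 (UPN-1), for treatment 0 to 5 and 6 to 14 (MINO) and 0 to 1 (UPN-1 at 72 h), and 2 to 18 among lines at 72 h. In DMSO at 24 h it gave 19 to 25 for MINO against JEKO, 16 to 27 for UPN-1 against JEKO and 13 to 22 for UPN-1 against MINO. Leaving out 1 pair gave 1 to 21 for JEKO at 72 h, 2 to 6 and 16 to 25 for MINO, and 1 to 2 and 6 to 15 for UPN-1. In JEKO at 72 h, leaving out treated replicate 1 or DMSO replicate 1 took the log2 difference of IFI44 from -4.86 to 0.093, of IFI6 from -2.57 to 0.195 and of IFI27 from -6.53 to 1.18, so that their sign changed without that DMSO library. Of 1961 single values under an alternative, 1624 kept direction and side of the threshold, 208 lost a call, 126 gained one and 3 changed sign.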
